A study of Homo sapiens with 8 samples.

Results

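The integrin subunits described here were 10 genes of epithelial cells, ITGA2, ITGA3, ITGA5, ITGA6, ITGAV, ITGB1, ITGB4, ITGB5, ITGB6 and ITGB8, chosen by symbol through their Ensembl identifiers from the 60675 genes counted. All 10 were among the 16661 genes that had enough reads to be tested. RNA sequencing of the established human pancreatic cancer line Panc10.05 gave 8 libraries in 4 groups of 2. Parental untreated cells received no drug, and parental indisulam cells received 2 µM indisulam for 18 h. Indisulam is a sulfonamide that recruits the splicing factor RBM39 to the ubiquitin ligase receptor DCAF15, which leads to degradation of RBM39. Both resistant groups came from a single derivative that had been grown in rising concentrations of the drug for months. Resistant indisulam cells stayed on the drug at 2 µM, whereas resistant untreated cells had been off it for a holiday of about a week, so the drug comparison in resistant cells contrasts long exposure with withdrawal and not an acute dose. The culture notes among the labels name A549, a lung cancer line, while every title names Panc10.05, and the titles were followed. The study calls its replicates technical, so the p-values measure only the spread between such libraries, and no other resistant derivative was sampled.

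Each library held between 65266253 and 108002436 reads in genes. The 8 epithelial markers examined, among them EPCAM, CDH1 and the simple keratins, were detected in all libraries, with summed levels of 6400 to 6589 CPM (counts scaled to a common library size by TMM, the trimmed mean of M values) in parental and 10973 to 12383 CPM in resistant libraries. Markers of fibroblasts (7 genes), leukocytes (6) and endothelium (4) summed to at most 0.178, 0.445 and 0.426 CPM, and DCN, LUM, PTPRC and CD3E had 0 reads in every library. Mitochondrial transcripts took 2.24% and 2.61% of the reads in parental indisulam libraries and between 3% and 4.33% in the others. The summed epithelial level moved with the line, and each marker except EPCAM was higher in both resistant groups than in both parental groups. EPCAM lay at 396 and 464 CPM in parental untreated and indisulam cells and at 424 and 432 CPM in resistant ones. The mitochondrial share was lower with the drug in parental cells. In resistant cells it was slightly higher with the drug, at 3.84% and 3.52% against 3% and 3.45% without it. The part of these markers and of the mitochondrial share in the integrin values was not tested.

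Integrins are receptors made of 1 alpha and 1 beta chain that bind the extracellular matrix outside the cell and couple to the actin or keratin cytoskeleton inside it. The alpha chain largely sets the ligand. Paired with ITGB1, ITGA2 forms a collagen receptor, ITGA3 and ITGA6 form laminin receptors and ITGA5 forms the classical fibronectin receptor. ITGA6 also pairs with ITGB4 in hemidesmosomes, the keratin-linked anchors of epithelial cells to laminin. ITGAV pairs with several beta chains, among them ITGB1, ITGB5, ITGB6 and ITGB8, and its dimers with ITGB6 and ITGB8 are known for binding and activating latent TGF-beta. Messenger RNA was measured here, so dimers on the cell surface were not. In bulk RNA, fewer cells expressing a gene and less of its RNA per cell cannot be told apart.

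Levels of different genes were compared as CPM per kb of exon. In parental untreated cells the laminin receptor genes led, with 52 ± 0.447 CPM per kb for ITGA3 (mean ± SD, n = 2 here and below), 50.8 ± 0.948 for ITGB4 and 49 ± 0.331 for ITGA6. ITGA2 at 24.2 ± 0.24, ITGB5 at 22.5 ± 0.512 and ITGB1 at 20.7 ± 0.0726 CPM per kb formed a middle group. ITGAV followed at 3.8 ± 0.0545 and ITGA5 at 1.06 ± 0.0148, and ITGB8 and ITGB6 were far lower, at 0.145 ± 0.00574 and 0.124 ± 0.00323 CPM per kb. No neighbours in this order overlapped between libraries in parental untreated cells. In the other groups the libraries of some neighbours overlapped. On indisulam these were ITGA3 with ITGB4 and ITGB1 with ITGA2 in parental cells, and ITGA6 with ITGB4 and ITGA3 with ITGA2 in resistant cells. Off the drug they were ITGA3 with ITGA6 in resistant cells.

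Some places in the order changed. Against 1.06 CPM per kb in parental untreated cells, ITGA5 lay at 4.3 ± 0.153 in resistant cells off the drug and 6.7 ± 0.0163 on it, where it stood above ITGAV at 6.22 ± 0.189. ITGB6 lay below ITGB8 in both parental groups and above it in both resistant groups. ITGA6 stood first in both indisulam groups and ITGA3 first in both untreated groups, although per kb of the longest transcript ITGA3 was first in all 4. The place of ITGB1 depended on the length used. Its annotated exons together span 14561 bases and its longest transcript 5614, and per kb of the longest transcript ITGB1 moved from place 6 to place 4 in parental untreated cells, from place 5 to place 2 in parental indisulam cells and from place 6 to place 2 in both resistant groups, and ITGA5 stayed below ITGAV in resistant indisulam cells (9.9 against 15.1).

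**Figure D1:**
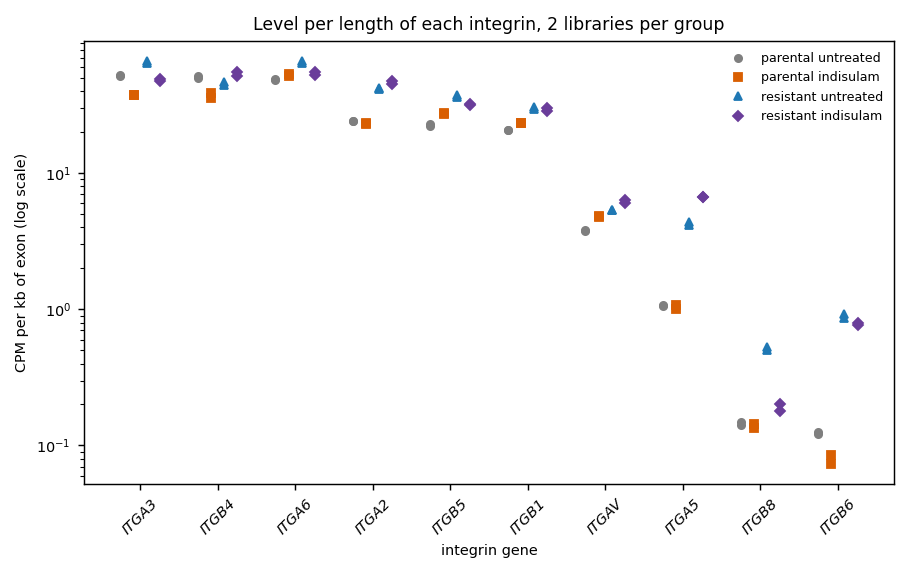
Level of each integrin gene in CPM per kb of exon (logarithmic vertical axis), genes ordered by the parental untreated mean, each point 1 library and each colour and symbol 1 of the 4 groups of 2. ITGA5, ITGB6 and, off the drug, ITGB8 lie higher in resistant than in parental libraries by more than any other member.

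Summed over the 10 genes, the level was 1903 ± 10.2 CPM without and 1778 ± 10.2 CPM with indisulam in parental cells, and 2556 ± 22 CPM without and 2376 ± 6.19 CPM with it in resistant cells. The sum was thus higher in both resistant groups than in both parental groups, with no overlap of libraries. It is a description of abundant members, to which ITGB6 and ITGB8 added little.

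**Figure D2:**
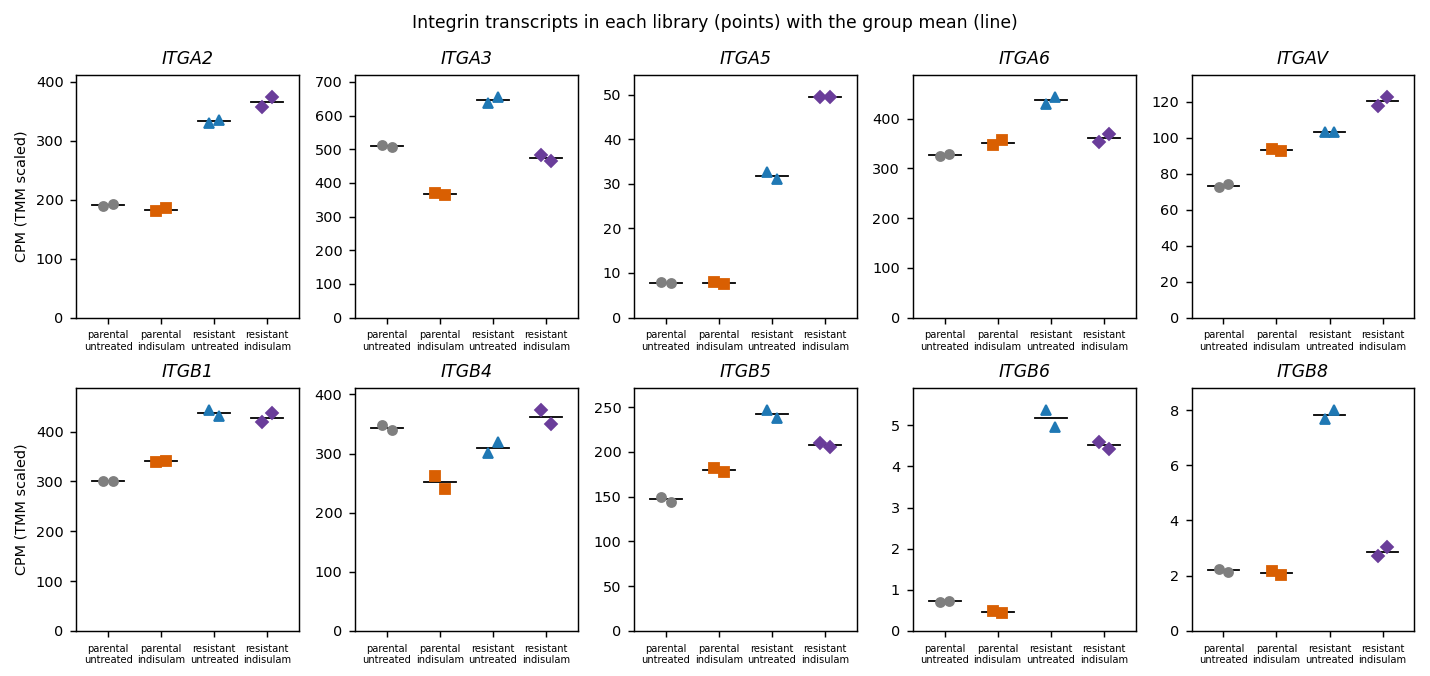
CPM of each of the 10 integrin genes (vertical axis from 0, scaled by the trimmed mean of M values) in the 4 groups, each point 1 library and each line the mean of 2. ITGA5 and ITGB6 separate the lines most widely, and ITGA2, ITGAV, ITGB1, ITGB5 and ITGB8 also lie higher in every resistant than in every parental library. ITGB8 stands high in resistant untreated cells. ITGA3 is lower with indisulam in both lines, and ITGB4 is lower with it in parental cells.

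ITGA5 (ENSG00000161638, chr12:54395261-54419266 of GRCh38, minus strand) had the widest difference between the lines among the 5 alpha members. It lay at 7.92 and 7.77 CPM in the parental libraries without and 7.95 and 7.48 CPM with indisulam, and at 32.6 and 31 CPM in the resistant libraries without and 49.4 and 49.5 CPM with it. Both resistant groups lay above both parental groups and apart from each other, while the parental groups overlapped. These levels rest on 579 to 4765 reads per library. ITGA5 was 4.05-fold higher in resistant than in parental cells off the drug (log2 change 2.02 ± 0.046 SE, adjusted p = 3e-21) and 6.41-fold higher on it (2.68 ± 0.0465, adjusted p = 2.9e-23). Indisulam went with 1.56-fold higher ITGA5 in resistant cells (log2 change 0.64 ± 0.0384, adjusted p = 2.4e-12). In parental cells ITGA5 did not pass the test (-0.02 ± 0.0566, adjusted p = 0.73). The responses of the lines differed by 0.66 ± 0.0682 (adjusted p = 4.7e-08). As a share of the CPM per kb of the 5 alpha members, ITGA5 made up 0.817% and 0.876% in parental untreated and indisulam cells, and 2.35% and 4.14% in resistant untreated and indisulam cells.

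The sequence just around the start of ITGA5 is shown because this gene carried the largest fold between the lines among the 5 alpha members. RefSeq promoter windows on GRCh38.p14, from 250 bases before to 50 after an annotated start site, were matched for 8 of the 10 genes (all except ITGA3 and ITGB4), and those printed were chosen with the values known. Capitals mark matches on either strand to GGGCGG (the SP1 GC box), TGANTCA (AP-1), TATAAA (the TATA box), GAAANNGAA (the core of interferon response elements) or CAGACA (a SMAD box). Matches are letters in these windows, and binding was not measured. The ITGA5 window lies at chr12:54419217-54419516, is read from the minus strand, and has a GC content of 69.3%.
ITGA5: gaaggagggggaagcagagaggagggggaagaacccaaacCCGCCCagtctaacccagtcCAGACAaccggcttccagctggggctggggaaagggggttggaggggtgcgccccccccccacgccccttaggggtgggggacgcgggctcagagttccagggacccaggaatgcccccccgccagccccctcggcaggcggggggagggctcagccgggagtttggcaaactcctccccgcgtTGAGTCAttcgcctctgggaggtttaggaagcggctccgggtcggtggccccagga
The window holds 1 GC box on the opposite strand, 1 SMAD box 190 bases before the start site and 1 AP-1 match that begins 6 bases before it. In 35116 RefSeq promoter windows of this length, 45% held GGGCGG, 7.71% TGANTCA and 16.9% CAGACA.

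ITGB1 (ENSG00000150093, chr10:32887273-33005792, minus strand), the common beta chain of ITGA2, ITGA3, ITGA5 and ITGA6, varied less. It lay at 302 and 300.1 CPM in the parental libraries without and 339.7 and 341.8 CPM with indisulam, and at 444 and 431 CPM in the resistant libraries without and 419 and 438 CPM with it. The resistant libraries lay above the parental ones, and the resistant groups overlapped each other. ITGB1 was higher in resistant cells by 0.54 ± 0.0285 off and 0.33 ± 0.0285 on the drug (log2, adjusted p = 4.9e-14 and 3.4e-10). It rose by 0.18 ± 0.0285 with indisulam in parental cells (adjusted p = 1e-05) and did not pass the test in resistant cells (-0.03 ± 0.0284, adjusted p = 0.42).

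FN1, which encodes the ligand fibronectin, lay at 36 and 36.2 CPM in the parental libraries without and 40.6 and 41 CPM with indisulam, and at 135 and 139 CPM in the resistant libraries without and 172 and 175 CPM with it. Its groups did not overlap. FN1 was 3.79-fold higher in resistant cells off the drug and 4.25-fold higher on it (log2 changes 1.92 ± 0.0306 and 2.09 ± 0.0309, adjusted p = 2.8e-24 and 1.3e-24). FN1 and ITGA5 thus stood highest in the same group, resistant indisulam.

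ITGAV (ENSG00000138448, chr2:186590010-186680901, plus strand) lay at 72.6 and 74.1 CPM in the parental libraries without and 93.8 and 92.7 CPM with indisulam, and at 103.2 and 103.3 CPM in the resistant libraries without and 118 and 123 CPM with it. The 4 groups followed each other in this order without overlap. ITGAV rose with indisulam in both lines, by 0.35 ± 0.0305 in parental and 0.22 ± 0.0302 in resistant cells (log2, adjusted p = 1.8e-09 and 1.5e-06). It was higher in the resistant line by 0.49 ± 0.0305 off and 0.37 ± 0.0302 on the drug (adjusted p = 9.5e-13 and 1.3e-10). The difference of its responses was small (-0.12 ± 0.0429, adjusted p = 0.02), and the call was lost when parental untreated library 1, either parental indisulam library, either resistant untreated library or resistant indisulam library 1 was left out (-0.11 to -0.08).

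Among ITGB5, ITGB6 and ITGB8, which pair with ITGAV and not with the other alpha members, ITGB5 (ENSG00000082781, chr3:124761948-124901418, minus strand), a receptor chain for vitronectin, was by far the most abundant. It made up between 96.3% and 99.2% of their summed CPM per kb in each group mean. ITGB5 lay at 149 and 144 CPM in the parental libraries without and 182 and 178 CPM with indisulam, and at 247 and 238 CPM in the resistant libraries without and 210.0 and 205.2 CPM with it. Indisulam went with higher ITGB5 in parental cells (0.29 ± 0.0296, adjusted p = 1.4e-08) and lower ITGB5 in resistant cells (-0.22 ± 0.0294, adjusted p = 9.3e-07), a difference of -0.52 ± 0.0417 (adjusted p = 1.2e-09). Off the drug it was 1.65-fold higher in resistant cells (0.72 ± 0.0295, adjusted p = 3.2e-16). On the drug the change was 0.21 ± 0.0295 (adjusted p = 1.5e-06), and its direction turned with a correction for GC content and length (-0.15, adjusted p = 1.9e-05). VTN, the gene of vitronectin, was nearly absent, with 0 reads in all parental libraries.

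ITGB6 (ENSG00000115221, chr2:160099667-160200313, minus strand) showed the largest fold between the lines. It had 77 and 78 reads in the parental libraries without and 37 and 33 with indisulam, and 398 and 322 reads in the resistant libraries without and 310 and 425 with it. In CPM these were 0.703 and 0.73, 0.494 and 0.426, 5.37 and 4.96, and 4.6 and 4.42. Every resistant library lay above every parental library. ITGB6 was 7.21-fold higher in resistant cells off the drug (log2 change 2.85 ± 0.117, adjusted p = 3.9e-16) and 9.77-fold higher on it (3.29 ± 0.14, adjusted p = 6.5e-16). It fell by 0.64 ± 0.186 on the log2 scale with indisulam in parental cells (adjusted p = 0.0051), a call lost without parental indisulam library 2 (-0.56, adjusted p = 0.057). In resistant cells the drug comparison missed the threshold (-0.20 ± 0.0927, adjusted p = 0.075) and passed it without resistant untreated library 2 (-0.26, adjusted p = 0.048). The responses of the lines were not shown to differ (0.44 ± 0.209, adjusted p = 0.085).

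ITGB8 (ENSG00000105855, chr7:20330702-20415754, plus strand) stood high in a single group. It lay at 2.26 and 2.13 CPM in the parental libraries without and 2.16 and 2.04 CPM with indisulam, and at 7.67 and 8.01 CPM in the resistant libraries without and 2.7 and 3.04 CPM with it, from 158 to 568 reads per library. The resistant untreated libraries stood apart, and the parental groups overlapped. ITGB8 was 3.57-fold higher in resistant than in parental cells off the drug (log2 change 1.83 ± 0.0879, adjusted p = 7.2e-15), against 1.38-fold on it (0.46 ± 0.107, adjusted p = 0.00055). It fell by 1.44 ± 0.0883 on the log2 scale in resistant cells on indisulam (adjusted p = 3.3e-12) and did not pass the test in parental cells (-0.06 ± 0.107, adjusted p = 0.63). The responses differed by -1.37 ± 0.14 (adjusted p = 4.1e-08), the largest difference among the 10 members. An antisense gene, ITGB8-AS1, overlaps it and held 3.95% of the reads of the pair. Since the strand setting of the counting was not stated, reads of such opposite-strand neighbours may have been shared.

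The windows of ITGB6 and ITGB8 are shown because they differ in base composition although both genes were low in parental cells and higher in resistant untreated cells. The ITGB6 window lies at chr2:160200223-160200522 (minus strand, GC content 31.7%) and the ITGB8 window at chr7:20330650-20330949 (plus strand, GC content 71.7%), with capitals as above.
ITGB6: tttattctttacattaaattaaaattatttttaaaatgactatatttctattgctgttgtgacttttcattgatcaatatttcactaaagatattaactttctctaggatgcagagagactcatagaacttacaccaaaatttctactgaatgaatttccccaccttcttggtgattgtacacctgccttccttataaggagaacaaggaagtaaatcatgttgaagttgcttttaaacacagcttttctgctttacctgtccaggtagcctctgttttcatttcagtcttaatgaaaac
ITGB8: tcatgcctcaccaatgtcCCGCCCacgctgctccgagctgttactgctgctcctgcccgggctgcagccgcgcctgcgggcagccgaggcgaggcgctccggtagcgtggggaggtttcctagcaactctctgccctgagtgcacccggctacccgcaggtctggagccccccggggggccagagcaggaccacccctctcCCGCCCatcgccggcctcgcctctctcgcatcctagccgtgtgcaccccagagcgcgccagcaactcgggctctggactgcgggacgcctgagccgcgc
The ITGB6 window held none of the 5 motifs. The ITGB8 window held 2 GC boxes on the opposite strand and no other motif. GAAANNGAA was found in 8.11% and TATAAA in 11.5% of all windows.

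ITGA2 (ENSG00000164171, chr5:52989340-53094779, plus strand), the alpha chain of the collagen receptor, lay at 189.9 and 192.6 CPM in the parental libraries without and 180.5 and 186 CPM with indisulam, and at 330.4 and 336 CPM in the resistant libraries without and 358 and 375 CPM with it. All resistant libraries lay above all parental ones. It was 1.74-fold higher in resistant cells off the drug and 2-fold higher on it (log2 changes 0.80 ± 0.0293 and 1.00 ± 0.0295, adjusted p = 3.7e-17 and 6.4e-19). Indisulam went with a rise of 0.14 ± 0.029 in resistant cells (adjusted p = 0.00033). In parental cells the value was -0.06 ± 0.0295 (adjusted p = 0.079), which passed the threshold under several alternatives (down to -0.13 when scaled by library totals alone). The difference of responses was 0.20 ± 0.0413 (adjusted p = 0.00032).

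ITGA3 (ENSG00000005884, chr17:50055968-50090481, plus strand), the alpha chain that binds laminin-332, lay at 512 and 506 CPM in the parental libraries without and 369.7 and 365 CPM with indisulam, and at 638 and 656 CPM in the resistant libraries without and 482 and 464 CPM with it. Within each line the indisulam libraries were lower, without overlap. ITGA3 fell in parental (-0.47 ± 0.0284, adjusted p = 3.5e-12) and resistant cells (-0.45 ± 0.0283, adjusted p = 4.6e-12), and the difference did not pass the test (0.02 ± 0.04, adjusted p = 0.73). It was higher in the resistant line both off and on the drug (0.35 ± 0.0282 and 0.36 ± 0.0284, adjusted p = 1.6e-10 and 5.6e-11). The longest transcript of ITGA3 has a GC content of 61.3%, and a correction for GC content and length changed these values. With it, the parental response was -0.28, the line difference off the drug was 0.10 (adjusted p = 0.0017), that on the drug turned to -0.15 (adjusted p = 1.8e-05), and the difference of responses became -0.25 (adjusted p = 3.6e-06).

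ITGA6 (ENSG00000091409, chr2:172427354-172506459, plus strand), a chain of laminin receptors with ITGB1 or ITGB4, lay at 326 and 329 CPM in the parental libraries without and 347 and 356 CPM with indisulam, and at 431 and 444 CPM in the resistant libraries without and 354 and 369 CPM with it. The resistant untreated libraries were the highest, and the 2 indisulam groups overlapped. ITGA6 fell by 0.27 ± 0.0291 with indisulam in resistant cells (adjusted p = 3.5e-08). In parental cells it rose slightly (0.10 ± 0.0291, adjusted p = 0.0038), a call lost without parental untreated library 1 (0.10, adjusted p = 0.052), without parental indisulam library 2 (0.06, adjusted p = 0.16) and with scaling by library totals (0.04). The responses differed by -0.38 ± 0.0411 (adjusted p = 9.9e-08). The resistant line was higher off the drug (0.42 ± 0.0291, adjusted p = 8.3e-12), whereas the comparison on the drug did not pass the test (0.04 ± 0.0292, adjusted p = 0.22). That comparison passed the threshold with library totals (0.13) and without parental indisulam library 2 (0.08) or either resistant untreated library (0.06).

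ITGB4 (ENSG00000132470, chr17:75721328-75757818, plus strand), the beta chain of hemidesmosomes, responded in opposite directions in the lines. It lay at 348 and 339 CPM in the parental libraries without and 262 and 241 CPM with indisulam, and at 301 and 319 CPM in the resistant libraries without and 374 and 349 CPM with it. The parental indisulam libraries were the lowest, and the resistant indisulam libraries overlapped no other group. Indisulam went with lower ITGB4 in parental cells (-0.45 ± 0.0458, adjusted p = 7e-06) and higher ITGB4 in resistant cells (0.22 ± 0.0458, adjusted p = 0.002), a difference of 0.67 ± 0.0648 (adjusted p = 7.4e-06). It was lower in resistant cells off the drug (-0.15 ± 0.0457, adjusted p = 0.016) and higher on it (0.52 ± 0.046, adjusted p = 1.1e-06). The call off the drug was lost without parental untreated library 1 (-0.13) or resistant untreated library 1 (-0.11). The longest transcript of ITGB4 has a GC content of 63.6%. With the GC and length correction the values were -0.25 and 0.10 for the drug in parental and resistant cells and 0.35 for the difference. Between the lines they were -0.35 off the drug and 0.01 on it, the last without a call (adjusted p = 0.83). GALK1, on the opposite strand, held 6.93% of the reads of the pair, and every other neighbour of a member apart from ITGB8-AS1 held under 1%.

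The ratio of ITGB4 to ITGA6, the chains of the hemidesmosome integrin, (of CPM per kb) was 1.06 and 1.02 in the parental libraries without and 0.747 and 0.667 with indisulam, and 0.691 and 0.709 in the resistant libraries without and 1.04 and 0.935 with it. Uncorrected, the ratio was near 1 in parental cells off the drug and resistant cells on it. It was lower in the other groups, with no overlap between these pairs of groups. These ratios are not corrected for GC content, which is 63.6% for ITGB4 and 42.5% for ITGA6. With the GC and length correction the line differences on the drug were 0.01 for ITGB4 and -0.02 for ITGA6, neither called. The higher ratio of resistant over parental indisulam cells thus ended. With that correction, the drug changes in parental cells were -0.25 for ITGB4 and 0.11 for ITGA6. Between the lines off the drug the corrected values were -0.35 for ITGB4 and 0.36 for ITGA6. The corrected ratio was thus lower in both indisulam groups and in resistant untreated cells than in parental untreated cells, so the uncorrected pattern did not hold. Within resistant cells the ratio was still higher on the drug, with corrected drug changes of 0.10 for ITGB4 and -0.28 for ITGA6. The drug changes of both genes kept their directions within each line. COL17A1, the transmembrane collagen of hemidesmosomes, lay at 33.4 and 33.5 CPM in the parental libraries without and 27.9 and 26.6 CPM with indisulam, and at 14.2 and 14.4 CPM in the resistant libraries without and 31.1 and 30 CPM with it. Like ITGB4, it fell in parental cells (-0.29 ± 0.0381, adjusted p = 5.9e-07) and rose in resistant cells on the drug (1.09 ± 0.0437, adjusted p = 1.1e-15), and the responses differed by 1.39 ± 0.0581 (adjusted p = 1.3e-14). PLEC, which encodes the keratin linker plectin, also fell with the drug in parental and rose in resistant cells (-0.15 ± 0.0386 and 0.17 ± 0.0386, adjusted p = 0.0038 and 0.0016), but unlike ITGB4 and COL17A1 it was higher in resistant cells off the drug (0.19 ± 0.0385, adjusted p = 0.00041). DST, another plaque gene of the list, named after its values were seen, was not called with the drug in either line (0.27 ± 0.141 and 0.18 ± 0.144, adjusted p = 0.17 and 0.37). The values of COL17A1, PLEC and DST are without the GC and length correction, which moved the parental drug change of ITGB4 from -0.45 to -0.25. Whether the directions of these partners, above all the small changes of PLEC, hold under it was not tested.

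**Figure D3:**
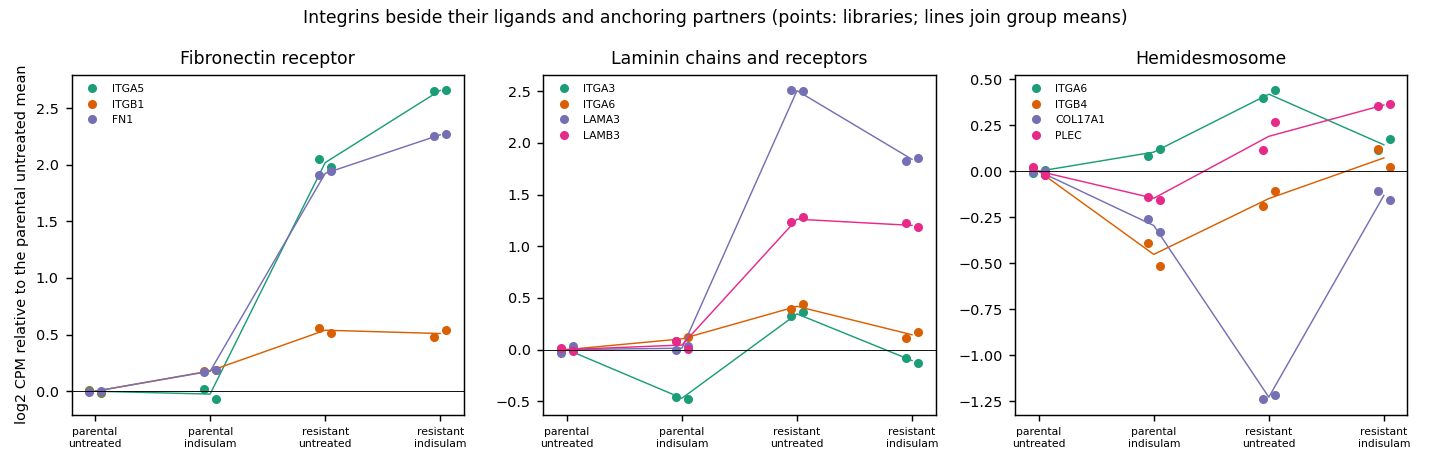
log2 CPM relative to the parental untreated mean in the 4 groups for ITGA5 and ITGB1 with FN1 (left), ITGA3 and ITGA6 with the laminin chains LAMA3 and LAMB3 (middle) and the hemidesmosome genes (right), points being libraries and lines joining group means. FN1 and ITGA5 stand highest in resistant indisulam cells, LAMA3 and LAMB3 in resistant cells lie further above their parental level than the receptor chains do, and COL17A1 and ITGB4 are lower in resistant untreated than in resistant indisulam cells.

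Counted over the members, 10 of 10 integrins passed the test between the lines off the drug, 9 higher and 1 (ITGB4) lower in resistant cells. Among all genes tested, 60.1% were called in that comparison, 30.3% higher and 29.9% lower. The median log2 change of the integrins was 0.63, and that of all genes -0.02. On the drug, 9 integrins were higher and ITGA6 was not called. All 10 fitted values were above 0, so 0 were lower by edgeR's quasi-likelihood test, also at an unadjusted p under 0.05, and 0 by DESeq2. The background was 69.5% of all genes called, 34.6% higher and 34.9% lower. The median was 0.41, against 0.00 for all genes. With the GC and length correction, 8 of the members were called on the drug, ITGA3 and ITGB5 of them lower. The comparisons of the lines off and on the drug share no libraries, but each shares libraries with the drug comparisons below, so that the resistant untreated libraries, for example, enter both ITGB8 values given above. Against a change of 0.5 log2 units (edgeR's glmTreat), ITGA2, ITGA5, ITGB5, ITGB6 and ITGB8 were called between the lines off the drug, where 15.5% of all genes were, and ITGA2, ITGA5 and ITGB6 on it, where 21.1% were.

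With indisulam in parental cells, 7 integrins were called, 4 higher (ITGA6, ITGAV, ITGB1 and ITGB5) and 3 lower (ITGA3, ITGB4 and ITGB6). The background was 58.2% of all genes called, 31.6% higher and 26.6% lower, so that the members' 7 of 10 lay near it. In resistant cells, 8 were called, 4 higher (ITGA2, ITGA5, ITGAV and ITGB4) and 4 lower (ITGA3, ITGA6, ITGB5 and ITGB8), against 50.7% of all genes, 24.9% higher and 25.8% lower. The median log2 change was -0.04 in parental and -0.11 in resistant cells, against 0.01 for all genes in both. ITGAV was higher and ITGA3 lower with indisulam in both lines, while ITGB4, ITGA6 and ITGB5 were called in opposite directions. The responses of the lines differed for 8 members, 3 with a higher and 5 with a lower response in resistant cells, against 50.1% of all genes, 22.7% higher and 27.5% lower. Scaled by library totals alone, 65.8% of all calls of this difference were higher, in place of 45.2%, and the median of all genes moved by 0.12 on the log2 scale. That scaling left ITGAV (-0.01) and ITGB1 (-0.09) without a call and called ITGA3 (0.13) and ITGB6 (0.55). That test against 0.5 log2 units called 0 integrins for the drug in parental cells (0 at an unadjusted p under 0.05), ITGA5 and ITGB8 in resistant cells and ITGB8 alone in the difference, against 6.25%, 5.28% and 5.45% of all genes. The scaling by library totals moved the share of higher calls from 54.3% to 42% for the drug in parental cells, from 49.1% to 59.7% for the drug in resistant cells, and from 49.8% to 59.7% for the lines on the drug.

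**Figure D4:**
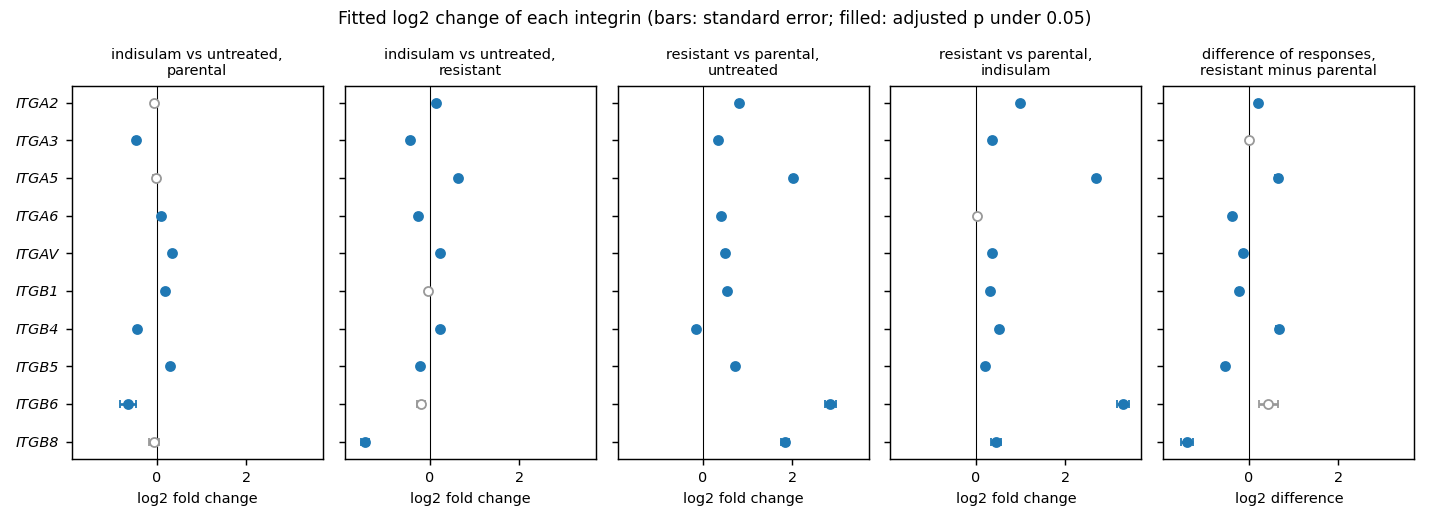
Fitted log2 change of each integrin (horizontal axis, bars showing the standard error) in the 5 comparisons, filled where the adjusted p is under 0.05 and open where it is not. Points lie mostly right of 0 between the lines, with ITGA5 and ITGB6 farthest, and on both sides of 0 for the drug, with ITGB8 farthest left in resistant cells.

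The other genes of the pathway were taken from 4 lists with 82 members, which were chosen with earlier results of these data known. The calls in them stand against 60.1% and 69.5% of all genes called between the lines off and on the drug, 58.2% and 50.7% for the drug in parental and resistant cells, and 50.1% for the difference. Of 16 other integrin subunits, 10 were tested, and most of these were near the limit of detection. Only ITGA1, a collagen receptor chain, and ITGAE, a chain for E-cadherin binding, reached a mean of 8 CPM. ITGA1 rose from 13.7 ± 0.624 to 15.3 ± 0.075 CPM in parental and from 15.5 ± 0.269 to 19 ± 0.13 CPM in resistant cells with indisulam (log2 changes 0.16 and 0.30, adjusted p = 0.0052 and 1.7e-05). ITGAE was lower in resistant cells, at 10.8 ± 0.359 against 13.4 ± 0.198 CPM off the drug (-0.31 ± 0.0522, adjusted p = 1.6e-05). Off the drug 6 of the 10 were higher and 2 lower in resistant cells, and on it 9 were higher and 1 lower. With indisulam, 1 was higher and 1 lower in parental cells, and in resistant cells 5 were higher and the rest not called. ITGA2B, ITGAM, ITGAX and ITGB3 lay at or below 0.122 CPM in every parental library. They had enough reads to be tested only through resistant libraries, so their calls as higher follow in part from how they entered. The counts of this list, also those for the difference of responses, are therefore a description only.

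Of 24 ligand genes, 19 were tested. Between the lines off the drug 12 were higher and 1 lower in resistant cells (median 0.61), and on it 14 were higher and 4 lower (median 0.86). Among the higher ones, TNC had at most 0.0274 CPM in parental libraries and was tested only through the resistant ones. THBS1, which encodes the matrix protein thrombospondin-1, lay at 106 and 110.1 CPM in parental untreated against 1772 and 1832 in resistant untreated libraries, a 16.7-fold difference (log2 change 4.06 ± 0.0329, adjusted p = 8e-30). LAMA3, a laminin alpha chain that the ITGA3 and ITGA6 receptors bind, was higher in resistant cells off the drug by 2.51 ± 0.0333 on the log2 scale (adjusted p = 8e-26). LAMB3, a laminin beta chain that assembles with it and was chosen after its values were seen, was higher by 1.26 ± 0.0303 (adjusted p = 9e-21). LAMA3 fell by 0.66 ± 0.0305 in resistant cells on indisulam (adjusted p = 1.4e-14) and was not called in parental cells (0.01 ± 0.037, adjusted p = 0.77). With the drug, 7 ligand genes were higher and 5 lower in parental cells, among them LAMB2, a laminin beta chain (-0.79 ± 0.0761, adjusted p = 0.00011), and 5 were higher and 6 lower in resistant cells.

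Of 30 genes of the adhesion complex, which joins integrin tails to actin, 29 were tested. Off the drug 21 were higher and 5 lower in resistant cells (median 0.25), and the same counts were found on it (median 0.39). FERMT2, the integrin activator kindlin-2, was 2.17-fold higher off the drug and 3.19-fold higher on it (log2 changes 1.12 ± 0.0535 and 1.67 ± 0.0542, adjusted p = 1.3e-14 and 9.1e-18). FLNA, the actin crosslinker filamin A that binds beta tails, was higher by 0.90 ± 0.0313 and 0.89 ± 0.0313 (adjusted p = 1.3e-17 and 1.8e-17). VCL (vinculin) and TLN1 (talin-1) were lower in resistant cells off the drug (-0.23 ± 0.0289 and -0.20 ± 0.0287, adjusted p = 3.1e-07 and 1.5e-06). FERMT1, a kindlin named after its values were seen, was more abundant than FERMT2 (means of 146 and 18.5 CPM over the 8 libraries). It was higher off the drug by only 0.10 ± 0.0277 (adjusted p = 0.0043). ILK, integrin-linked kinase, fell with indisulam by 0.72 ± 0.0281 in parental and 0.36 ± 0.0279 in resistant cells (adjusted p = 3.3e-15 and 2.3e-10). It went from 171 and 170.4 to 103 and 104 CPM in parental libraries. With the drug 6 genes of this list were higher and 10 lower in parental cells, and 9 were higher and 8 lower in resistant cells, so that 16 and 17 of the 29 were called, near the share of all genes.

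Of 12 hemidesmosome and tetraspanin partners, 11 were tested. Off the drug 8 were higher and 1 (COL17A1, -1.23 ± 0.0423, adjusted p = 1.2e-17) lower in resistant cells, and on it 8 were higher and 2 lower. CD81, a tetraspanin, lay between 1.69 and 1.98 CPM in parental and between 44.2 and 47.7 CPM in resistant libraries, a 26-fold difference off the drug (log2 change 4.70 ± 0.0572, adjusted p = 1.6e-26). CD151, the tetraspanin partner of laminin-binding integrins, was higher by 0.62 ± 0.0288 off the drug and 0.40 ± 0.0289 on it (adjusted p = 4.2e-15 and 1.2e-11). SLC3A2, the CD98 heavy chain that associates with beta chains, rose with indisulam by 0.58 ± 0.0286 in parental and 0.28 ± 0.0287 in resistant cells (adjusted p = 1.5e-13 and 2.5e-08). In all, 4 of this list were higher and 2 lower with the drug in parental cells, and 6 were higher and 2 lower in resistant cells. In the difference of the responses, 5 of the other integrins were higher and the rest not called, 6 ligand genes were higher and 8 lower, 9 genes of the adhesion complex were higher and 6 lower, and 3 hemidesmosome and tetraspanin partners were higher and 4 lower.

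The pattern of ITGB8 over the 8 libraries was compared with that of 8929 protein-coding genes with a mean of at least 8 CPM, on the log2(CPM + 1) scale. The 5 most alike were IFI6 (Pearson r = 0.999), IFI44L (0.998), IFI27 (0.997), PLSCR1 (0.997) and OAS1 (0.991), all of which are known as interferon-induced genes. Of these, IFI6, IFI44L, IFI27 and OAS1 met the minimum of 8 CPM only through resistant untreated cells, the group where ITGB8 was highest. Their means in the other groups were at most 3.33 CPM (OAS1 in resistant indisulam cells). A total of 151 genes had an r over 0.95. The points are 4 groups of 2 libraries, so a single high group sets much of such an r, and r takes no account of size. IFI6 had a mean of 0.563 CPM without and 0.453 CPM with indisulam in parental cells, and 62.6 CPM without and 2.18 CPM with it in resistant cells, far wider than the 2.2, 2.1, 7.84 and 2.87 CPM of ITGB8. PLSCR1, the most abundant of the 5, had 47.2, 42.5, 203 and 58.5 CPM in the same order.

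**Figure D5:**
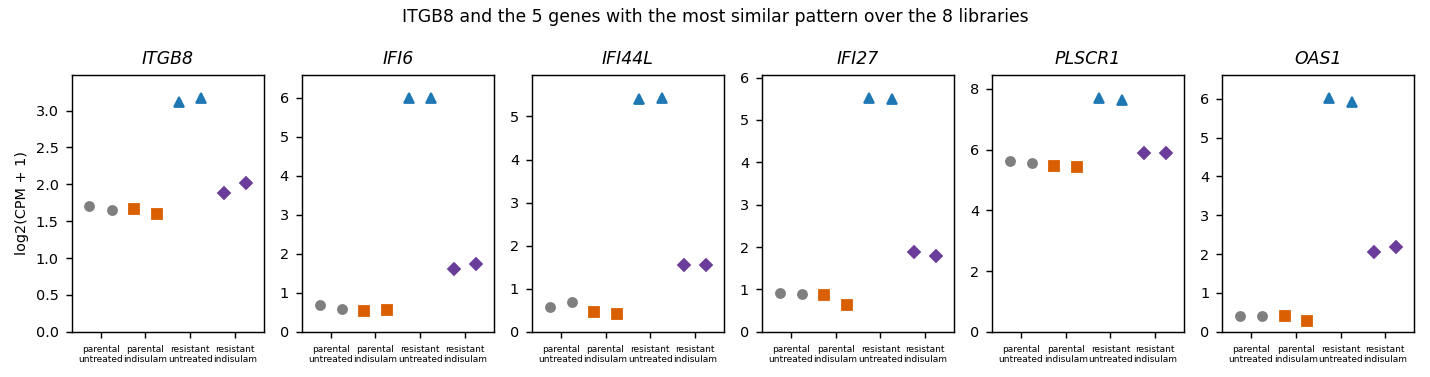
log2(CPM + 1) of ITGB8 and of the 5 protein-coding genes most alike to it over the 8 libraries (each panel with its own vertical axis from 0, points being libraries in the 4 groups). In all 6 panels the resistant untreated libraries stand apart at the top, and the resistant indisulam libraries lie between them and the parental ones.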

How the data were processed

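The authors deposited raw read counts per gene, 1 table per library, from stranded libraries of polyadenylated RNA. Their processing notes name HISAT2 2.2.1, Picard and HTSeq with GRCh38, and their methods name trimming with SeqPurge. The strand setting and annotation release of the counting are not given in the sources used here. Each table had 60675 genes, of which 60419 matched GENCODE release 44 by identifier, and 9 lines that name no gene, which were left out of library sizes and tests. Reads with no gene were 4.43% to 5.94% of a library, ambiguous reads 5.61% to 7.33% and marked duplicates 14.1% to 18.4%. No molecular identifiers are described, so depth bounds counting error only.

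The test was edgeR 4.0.16 (R 4.3.3). After filterByExpr, 16661 genes were scaled by TMM and fitted by robust quasi-likelihood with 1 mean per group over the 8 libraries (4 residual degrees of freedom). Calls used a p under 0.05 after Benjamini-Hochberg adjustment over all genes tested. The standard error was the log2 change divided by the square root of F. Exact permutation of 2 libraries against 2 cannot go below p = 0.333 (two-sided) and was not used. Lengths were the union of exons, and the GC content of a gene was that of its longest transcript. Alternatives were DESeq2 1.42.0 (size factors and Wald test), library totals, other filters, the replicate block, fits of only the groups compared, a threshold of 0.01, glmTreat at 0.5 log2 units, a GC and length correction (a smooth curve per library, used as an offset), the longest transcript, and each library left out. The code was tested on simulated data.

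The members and lists were chosen with earlier results of these data known. All members were named. From each list the text names at most 3 called genes per direction and comparison with the largest change at a mean of 8 CPM or more, and marks exceptions. For likeness, the member with the largest difference of responses was taken. Plots used matplotlib 3.10.9 (Python 3.11.15).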

Additional observations from a re-analysis of the deposited data

Results flagged for a closer look

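By the interaction term of the edgeR model, 8 integrins had a response to the drug that differed between resistant and parental cells. On the log2 scale (resistant minus parental) the differences were 0.67 for ITGB4, 0.66 for ITGA5, 0.20 for ITGA2, -0.12 for ITGAV, -0.21 for ITGB1, -0.38 for ITGA6, -0.52 for ITGB5 and -1.37 for ITGB8. Treated parental cells had the drug for 18 h and treated resistant cells were kept on it, so line and length of exposure cannot be told apart in these differences. Across all genes 50.1% were called in this comparison. The call of ITGAV was lost with library totals alone (-0.01), with the other filters and at the threshold of 0.01. The call of ITGB1 was lost with library totals alone (-0.09). Against 0.5 log2 units, ITGB8 alone was called. With the GC and length correction the difference of ITGB4 was 0.35, and ITGA3, which is not among the 8, was called at -0.25 (adjusted p = 3.6e-06).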

How the results depend on the processing

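Of 940 single integrin values under an alternative, 860 kept their side of the threshold and, where called, their direction. Of the rest, 53 lost the call, 21 gained one and 6 reversed. Values without a call could change sign among the 860. ITGA5 did so for the drug in parental cells with the GC and length correction (-0.02 to 0.08). The 6 were ITGA3 (-0.15) and ITGB5 (-0.15) between the lines on the drug and ITGA3 in the difference of responses (-0.25), each with the GC and length correction and again with that correction and the replicate block. The cause was not tested. Of the 53 lost calls, 31 came from testing against 0.5 log2 units, which asks for a larger change. Under it 0 integrins were called for the drug in parental cells (0 also at an unadjusted p under 0.05, against 7 by edgeR's ordinary test), 2 for the drug in resistant cells, 5 between the lines off the drug, 3 on it and 1 in the difference, and 6, 6, 25, 33 and 8 genes of the pathway lists in the same order (36, 41, 56, 64 and 41 by the ordinary test). DESeq2's size factors and Wald test changed no integrin call. With each library left out in turn, the lone library left in its group being assumed to vary like the others, the integrins called ranged over 6 to 8, 8 to 9, 9 to 10, 9 to 10 and 7 to 8 in that order, and the pathway genes over 29 to 35, 35 to 43, 48 to 57, 61 to 66 and 32 to 38. Replicate numbers are shared between groups, but deviations of same-numbered libraries correlated at only -0.192 to 0.137, so the numbers were not taken to pair the libraries. With the replicate number as a block, 7, 8, 10, 9 and 8 integrins were called, as without it, and 37, 40, 56, 64 and 37 pathway genes. Levels per kb of the longest transcript were higher than per kb of exon for all 10 integrins, which follows from the shorter length alone. There were 2 libraries per group, and ITGB6 rests on 33 to 78 reads per parental library.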
